A study of Mus musculus with 8 samples.

Results

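Cytochrome P450 enzymes, encoded in the mouse by genes whose symbols begin with Cyp, were followed across the kidneys of an ischemia-reperfusion study. The members are the protein-coding genes whose symbol is Cyp followed by a digit, 100 of the 54965 genes in the deposited table. FPKM are fragments scaled to gene length and to a size per library, which was not the count of assigned reads. Of the 100 P450 genes, 37 reached a mean of 1 FPKM over the 8 libraries and were tested among 13304 genes. Another 41 had at least 1 read and 22 had no read in any library. All but 3 of the 37 had a mean of at least 1 FPKM in each of the 4 groups. None of those 3 (Cyp26b1, Cyp4f18 and Cyp2u1) passed the main test in any comparison reported here.

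RNA of 8 mouse kidney samples was sequenced after poly-T selection of mRNA. The knockout, UtxPax2 Cre KO by its label, removes Utx (also called Kdm6a), an X-linked gene for a histone demethylase, where a Cre recombinase driven by Pax2 is made. Pax2 is active in the lineages that form kidney tubules. Cells that never express the Cre keep the gene. Ischemia-reperfusion (I/R) is an acute kidney injury in which blood flow is stopped and then restored. The groups, 2 libraries each, are knockout 3 days after I/R, wild type 3 days after I/R, knockout without I/R and wild type without I/R. The labels do not say whether the samples without I/R had a sham operation, and they give no age, strain or sex. No label ties a library to an animal, so p-values measure the spread between these libraries, which may be technical.

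P450 enzymes are heme proteins that insert 1 atom of oxygen into lipids, steroids, vitamins and foreign chemicals, taking electrons from P450 reductase in the endoplasmic reticulum or from ferredoxin in mitochondria. In the kidney they are known for the activation and inactivation of vitamin D in the tubule and for turning arachidonic acid into vasoactive epoxides and omega-hydroxylated acids. The mouse kidney is also known for P450 genes of the proximal tubule that androgens hold at higher levels in males.

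Reads assigned to genes numbered 16780542 to 18497835 per library. Kdm6a stood at 1.59 and 1.83 FPKM in knockout I/R libraries, 3.00 and 2.97 in wild-type I/R libraries, 1.99 and 1.91 in knockout libraries and 2.57 and 2.94 in wild-type libraries. The genotype difference passed the test after I/R (log2 difference -0.56 ± 0.10, SE, limma adjusted p = 0.0295) and not without I/R (-0.35 ± 0.10, adjusted p = 0.431). All 8 libraries had the Y-linked genes Ddx3y, Uty, Kdm5d and Eif2s3y and no more than 0.02 FPKM of Xist, the pattern of male tissue. Adipocyte markers summed to 8.19 FPKM in wild-type library 1 and to no more than 1.28 FPKM elsewhere. The tubular injury gene Havcr1 reached 90.2 and 89.6 FPKM in knockout I/R libraries and 241 and 204 FPKM in wild-type I/R libraries, against no more than 1.26 FPKM without I/R.

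A few genes made up most of the P450 RNA. Cyp4b1 alone held 34.6% of the summed P450 FPKM (mean over the 8 libraries), Cyp4b1, Cyp2e1, Cyp2j5 and Cyp2a4 held 74.0%, and the 12 highest genes held 91.1%. Means exceeded 100 FPKM for 6 members, 50 FPKM for 14 and 10 FPKM for 22. Among the genes with no read in any library were Cyp7a1, the rate-limiting enzyme of bile acid synthesis in liver, the liver gene Cyp2c29 and Cyp19a1, the aromatase gene. At this depth a count of 0 allows up to 3 reads, which is 0.154 to 0.208 FPKM for a gene of 1 kb, counting error only.

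**Figure D1:**
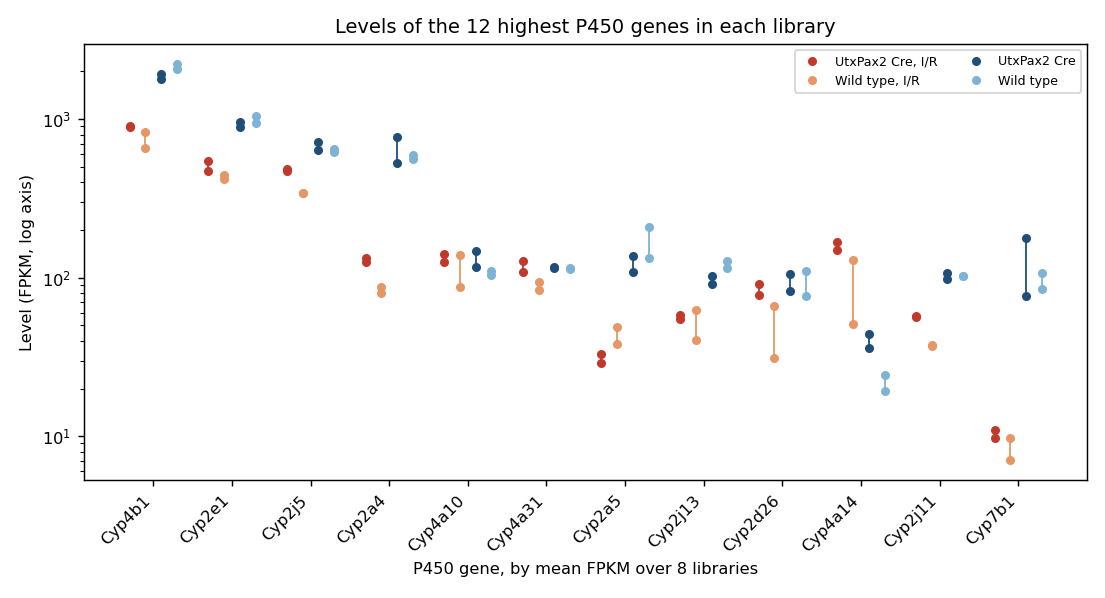
Levels of the 12 P450 genes with the highest mean, in FPKM on a log axis, with 1 point per library and a line joining the 2 libraries of a group. Cyp4b1 and Cyp2e1 lie lower in all 4 I/R libraries than in the 4 libraries without I/R, while Cyp4a14 lies higher in the I/R libraries.

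Summed P450 RNA in every I/R library lay under that in every library without I/R. It came to 3004 and 2902 FPKM in knockout I/R libraries, 2324 and 2387 in wild-type I/R libraries, 5761 and 5012 in knockout libraries and 5379 and 5903 in wild-type libraries. The ratio of the I/R mean to the mean without I/R was 0.548 in knockout and 0.417 in wild type, and these sums were not tested. As a share of all FPKM, P450 RNA took 0.754% to 0.762% in knockout I/R libraries and 0.645% to 0.659% in wild-type I/R libraries. Without I/R it took 1.13% to 1.18% in knockout libraries and 1.25% to 1.29% in wild-type libraries. As a share of assigned reads it took 0.594% to 0.710% in I/R libraries and at least 1.04% without I/R. The size behind the FPKM, divided by assigned reads, was larger in I/R libraries (0.990 to 1.07) than without I/R (0.857 to 0.905). The ratios 0.548 and 0.417 are therefore lower than ratios of read shares would be.

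Markers of several tubule segments moved with this sum. The 12 proximal tubule markers, which include Lrp2, Cubn, Slc34a1 and Slc22a6 and of which none was at 0, summed to 4133 and 3954 FPKM in knockout I/R libraries, 2802 and 2740 in wild-type I/R libraries, 5476 and 5656 in knockout libraries and 5397 and 5690 in wild-type libraries. Of the 12, 4 fell after I/R in knockout (median difference of the 12 -0.32) and 10 fell in wild type (-0.94). Of 3 distal convoluted tubule markers, 1 fell in knockout (median -0.39) and 3 in wild type (-1.47), and of 3 intercalated cell markers, 0 fell in knockout (-0.23) and 3 in wild type (-1.26). Of 3 thick ascending limb markers 1 fell in each genotype, and of 3 principal cell markers 1 fell in knockout and 2 in wild type. Of 3 podocyte markers 0 fell in either genotype. In both genotypes 3 of 4 macrophage markers, 4 of 4 fibroblast markers and 4 of 4 tubular injury genes rose. Among all tested genes 11.7% were lower and 8.95% higher in knockout, and 20.1% lower and 17.4% higher in wild type. The P450 sum divided by the marker sum was 0.727 and 0.734 in knockout I/R libraries, 0.829 and 0.871 in wild-type I/R libraries, 1.05 and 0.886 in knockout libraries and 0.997 and 1.04 in wild-type libraries. In whole-kidney RNA, fewer proximal tubule cells and less P450 RNA per cell cannot be told apart. Of 6 hepatocyte markers, another cell type rich in P450s, Ahsg and Serpina3k stayed at or under 0.05 FPKM in all libraries. The sum of the 6 was nearly all Ttr, and no other marker of the 6 exceeded 7.80 FPKM. The 6 summed to 155 and 181 FPKM in knockout I/R libraries, 92.4 and 99.7 in wild-type I/R libraries, 216 and 189 in knockout libraries and 168 and 222 in wild-type libraries. The part of these cell type markers in the P450 sum was not tested.

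**Figure D2:**
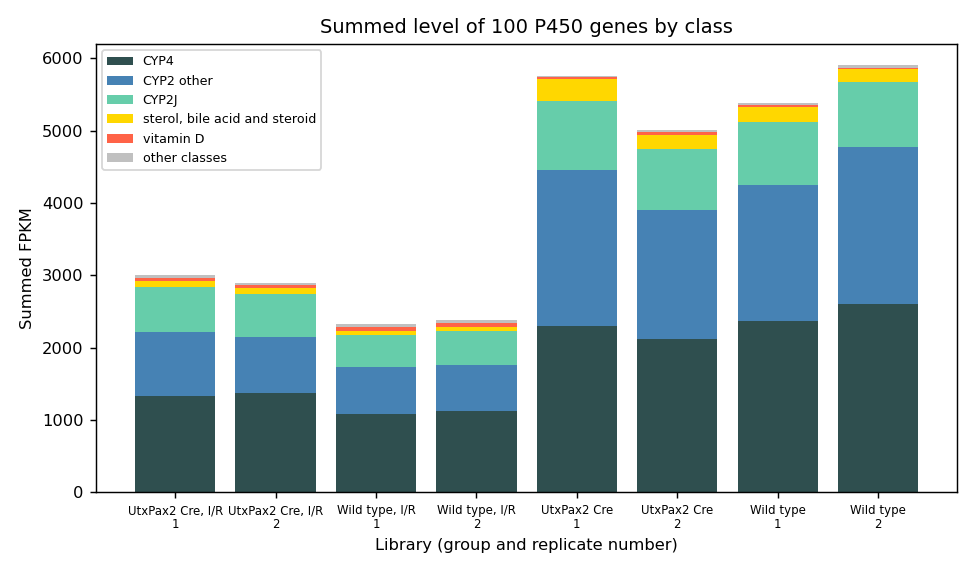
Summed FPKM of all 100 P450 genes in each library, stacked by class. The I/R libraries reach between 2324 and 3004 FPKM and the libraries without I/R between 5012 and 5903 FPKM, with CYP4 and the CYP2 genes outside the 2C and 2J families as the largest parts.

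In both genotypes Cyp7b1, Cyp2d9, Cyp2a4 and Cyp2a5, genes of steroid, coumarin and drug metabolism, fell strongly by 3 days after I/R, and the abundant Cyp4b1, Cyp2e1 and Cyp2j5 fell less. Cyp4a14, a fatty acid hydroxylase gene, and Cyp1b1 rose in both. The test was limma on log2(FPKM + 1) over all 13304 genes, and a verb such as rose or fell is kept for genes with a Benjamini-Hochberg adjusted p under 0.05. Differences are log2 values ± SE on that scale, which understates changes of low genes. After I/R, 19 of the 37 P450 genes changed in knockout kidneys, 14 lower and 5 higher, where 20.7% of all tested genes were called (11.7% lower and 8.95% higher). In wild-type kidneys 25 changed, 17 lower and 8 higher, where 37.5% of all tested genes were called (20.1% lower and 17.4% higher). The median difference was -0.15 for P450 genes and -0.03 for all genes in knockout, and -0.36 and -0.03 in wild type. These 2 comparisons share no library, but both use the same spread per gene, taken from all 8 libraries, so their calls are not independent. In all, 13 P450 genes fell in both (35.1% of the 37, against 9.64% of all tested genes) and 5 rose in both (13.5%, against 7.88%).

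The knockout count was 11 without knockout I/R library 1 and 9 without knockout I/R library 2, whereas leaving out any 1 library gave 19 to 25 calls in wild type. When each library was scaled to an equal FPKM sum, all genes shifted by a median of 0.212 in knockout and 0.246 in wild type, and the P450 split became 11 lower and 8 higher in knockout and 14 lower and 10 higher in wild type. Over all genes that scaling called 3263 in knockout, of which 84.4% were higher (43.3% before it), and 6027 in wild type, of which 79.5% were higher (46.5% before it). It ended the calls of Cyp4f13, Cyp27b1 and Cyp2j13 in knockout (adjusted p 0.432, 0.0617 and 0.0671) and of Cyp4f13, Cyp4a31 and Cyp4a12a in wild type (0.402, 0.627 and 0.0575).

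**Figure D3:**
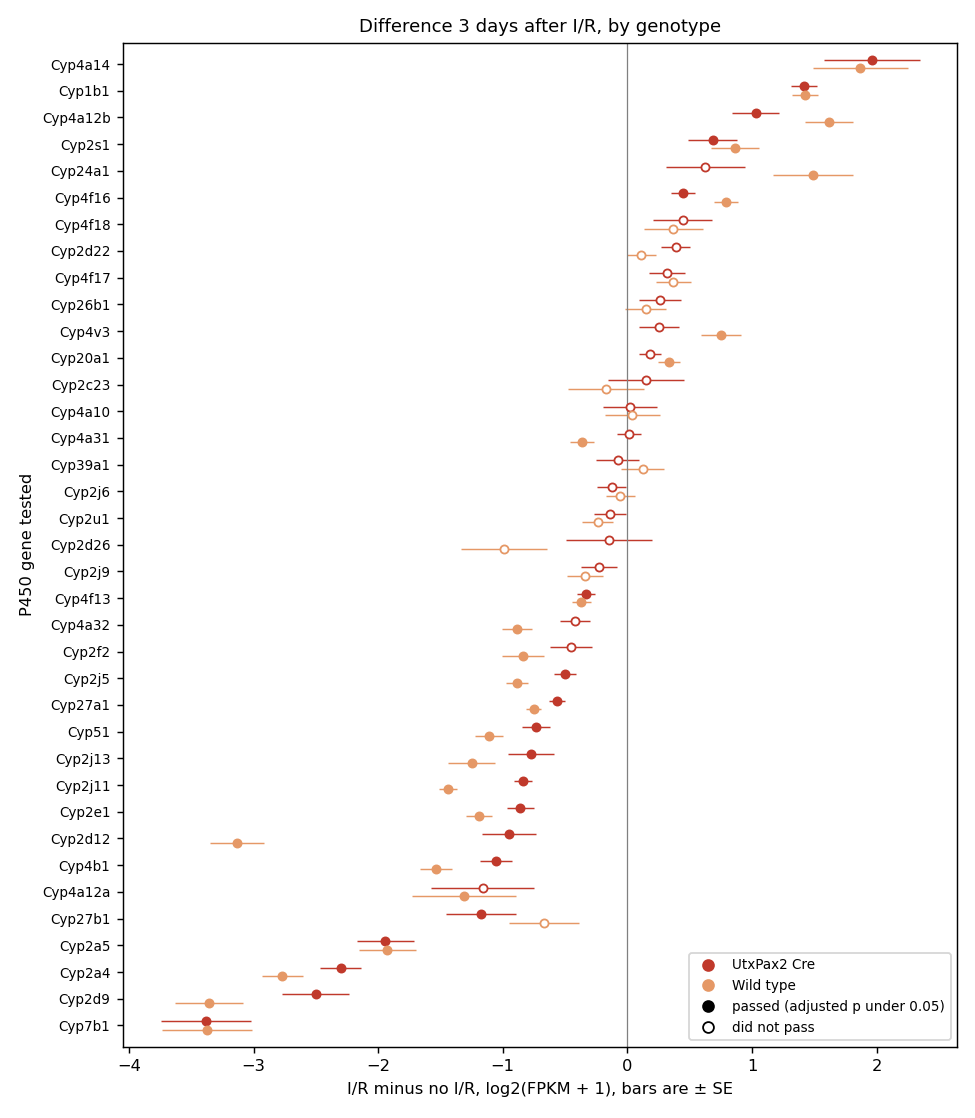
Log2 difference, I/R minus no I/R, of the 37 tested P450 genes in knockout (upper mark, red) and wild-type kidneys (lower mark, orange), with SE bars; filled marks passed the test. Cyp7b1, Cyp2d9, Cyp2a4 and Cyp2a5 lie farthest left in knockout, and Cyp4a14, Cyp1b1 and Cyp4a12b, which is listed apart from its near-identical copy, farthest right.

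The most abundant members, Cyp4b1 and Cyp2e1, fell in both genotypes. Cyp4b1, a lung and kidney enzyme of fatty acids and foreign chemicals that is androgen-dependent in the mouse kidney (chromosome 4, 115624725 to 115647723, minus strand, GRCm38), had 905 and 888 FPKM in knockout I/R libraries, 659 and 831 in wild-type I/R libraries, 1928 and 1796 in knockout libraries and 2061 and 2236 in wild-type libraries. Both I/R groups lay under both groups without I/R, with no overlap. The difference was -1.05 ± 0.13 in knockout (adjusted p = 0.0034) and -1.53 ± 0.13 in wild type (adjusted p = 0.000262). Cyp2e1, which oxidizes ethanol and other small molecules, had 545 and 474 FPKM in knockout I/R libraries, 422 and 445 in wild-type I/R libraries, 961 and 887 in knockout libraries and 939.8 and 1043 in wild-type libraries. It fell by 0.86 ± 0.11 in knockout and by 1.19 ± 0.11 in wild type, again with no overlap between I/R and no I/R.

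The largest falls were in genes of steroid and CYP2A and CYP2D metabolism. Cyp7b1, which hydroxylates oxysterols and steroids, stood at 9.78 and 10.99 FPKM in knockout I/R libraries, 9.73 and 7.04 in wild-type I/R libraries, 179 and 76.9 in knockout libraries and 107 and 84.8 in wild-type libraries. The libraries without I/R were spread widely in knockout, yet the lowest of them was far above every I/R library. Its differences were -3.38 ± 0.36 in knockout and -3.37 ± 0.36 in wild type. Cyp2d9, a male-biased testosterone hydroxylase, had 16.4 and 14.1 FPKM in knockout I/R libraries, 11.8 and 7.40 in wild-type I/R libraries, 114 and 72.3 in knockout libraries and 93.4 and 119 in wild-type libraries. It fell by 2.50 ± 0.27 in knockout and by 3.36 ± 0.27 in wild type. In wild type the fitted ratio of I/R to no I/R was 0.0964 for Cyp7b1 and 0.0976 for Cyp2d9.

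Cyp2d12, a CYP2D gene, had 35.3 and 29.3 FPKM in knockout I/R libraries, 8.77 and 6.12 in wild-type I/R libraries, 68.9 and 57.6 in knockout libraries and 60.5 and 86.3 in wild-type libraries. The I/R libraries of both genotypes were low, and those of wild type were the lowest. It fell by 0.95 ± 0.22 in knockout (adjusted p = 0.0253) and by 3.13 ± 0.22 in wild type (adjusted p = 0.000146). The knockout call ended without knockout library 1 (adjusted p = 0.116) and without knockout I/R library 1 or 2 (0.0692 and 0.149). Cyp2d26 had 91.2 and 78.1 FPKM in knockout I/R libraries, 66.4 and 31.2 in wild-type I/R libraries, 82.9 and 106 in knockout libraries and 76.4 and 110 in wild-type libraries. Its difference did not pass in knockout (-0.15 ± 0.34) or in wild type (-0.99 ± 0.34, adjusted p = 0.0598), where it passed once wild-type I/R library 1 was left out (-1.52, adjusted p = 0.00953).

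Cyp2a4, a testosterone hydroxylase gene, and Cyp2a5, a coumarin hydroxylase gene, lie on chromosome 7 (26307169 to 26315088 and 26835305 to 26843548, plus strand) and are near-identical copies. Their proteins share 97.6% of residues and their coding sequences differ at 23 of 1482 bases, with a longest shared run of 216 bases, so short reads may be assigned to either gene. The 60 coding bases from 596 to 655 (GENCODE M21) hold 4 differing bases, in capitals, the most of any stretch of that length.
Cyp2a4: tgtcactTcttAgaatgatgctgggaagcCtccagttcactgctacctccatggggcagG
Cyp2a5: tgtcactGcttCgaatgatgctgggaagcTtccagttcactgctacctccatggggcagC

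Cyp2a4 had 133 and 125 FPKM in knockout I/R libraries, 80.6 and 87.4 in wild-type I/R libraries, 772 and 531 in knockout libraries and 564 and 591 in wild-type libraries. Cyp2a5 had 33.1 and 29.0 FPKM in knockout I/R libraries, 38.1 and 48.8 in wild-type I/R libraries, 137 and 108 in knockout libraries and 133 and 209 in wild-type libraries. Neither gene's groups overlapped between I/R and no I/R. Cyp2a4 fell by 2.30 ± 0.16 in knockout and by 2.77 ± 0.16 in wild type, and Cyp2a5 fell by 1.94 ± 0.23 in knockout and by 1.93 ± 0.23 in wild type. The pair summed to 1 value fell too (-2.245 ± 0.172 in knockout and -2.545 ± 0.172 in wild type), so this fall does not depend on how reads were split between the copies.

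Of the 10 tested CYP2 genes outside the 2C and 2J families, 5 fell and 1 rose in knockout and 6 fell and 1 rose in wild type. Over all tested genes 11.7% fell and 8.95% rose in knockout, and 20.1% fell and 17.4% rose in wild type. Among these 10, Cyp2s1, an epithelial gene that dioxin induces, was the riser. It had 5.27 and 6.29 FPKM in knockout I/R libraries, 7.57 and 6.61 in wild-type I/R libraries, 2.41 and 4.19 in knockout libraries and 3.61 and 3.28 in wild-type libraries. Its difference was 0.68 ± 0.19 in knockout (adjusted p = 0.0485) and 0.86 ± 0.19 in wild type (adjusted p = 0.0128). The knockout call ended without any 1 library other than knockout library 2 (adjusted p 0.0726 to 0.233), and the wild-type call without wild-type library 2 (0.0666) or wild-type I/R library 1 (0.0732).

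The CYP2J epoxygenases lie in 1 stretch of chromosome 4, from 96027534 to 96664154 for the 5 tested genes. Of these 5, 3 fell in both genotypes, as did 9.64% of all tested genes. Cyp2j5, which makes epoxides of arachidonic acid in the proximal tubule, had 488 and 468 FPKM in knockout I/R libraries, 343 and 342 in wild-type I/R libraries, 718 and 638 in knockout libraries and 625 and 644 in wild-type libraries. It fell by 0.50 ± 0.09 in knockout and by 0.89 ± 0.09 in wild type. The knockout call of Cyp2j5 ended without knockout I/R library 1 (adjusted p = 0.0616) or 2 (0.0991), with no filter on low values (0.052) and with a fit to those 2 groups alone (0.0508). Cyp2j11 had 57.6 and 56.5 FPKM in knockout I/R libraries, 36.9 and 37.8 in wild-type I/R libraries, 107 and 98.3 in knockout libraries and 103 and 103 in wild-type libraries. The 4 groups of Cyp2j11 were tight, and the fall was 0.84 ± 0.07 in knockout and 1.44 ± 0.07 in wild type.

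Cyp2j13 had 58.3 and 54.6 FPKM in knockout I/R libraries, 40.6 and 62.8 in wild-type I/R libraries, 103 and 91.7 in knockout libraries and 116 and 127 in wild-type libraries. It fell by 0.77 ± 0.19 in knockout (adjusted p = 0.0307) and by 1.25 ± 0.19 in wild type (adjusted p = 0.00243). The knockout call ended without any 1 of the knockout, knockout I/R or wild-type libraries (adjusted p 0.0501 to 0.158). Cyp2j6 and Cyp2j9 did not pass, with differences of -0.13 ± 0.11 and -0.23 ± 0.15 in knockout and -0.06 ± 0.11 and -0.34 ± 0.15 in wild type. The 1 tested CYP2C gene, the arachidonate epoxygenase Cyp2c23, lay between 5.996 and 13.1 FPKM in all 8 libraries and did not pass (0.15 ± 0.30 in knockout and -0.17 ± 0.30 in wild type).

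CYP4 genes, which mostly hydroxylate the far end of fatty acids, moved both ways. Of 12 tested, 2 fell and 3 rose in knockout, and 5 fell and 4 rose in wild type. The shares over all tested genes were 11.7% lower and 8.95% higher in knockout, and 20.1% lower and 17.4% higher in wild type. Cyp4a14, a fatty acid omega-hydroxylase gene known as a target of the receptor PPARA, had 149 and 168 FPKM in knockout I/R libraries, 129.7 and 51.1 in wild-type I/R libraries, 43.9 and 36.2 in knockout libraries and 19.2 and 24.3 in wild-type libraries. It was the member with the largest rise in both genotypes, 1.96 ± 0.38 in knockout (adjusted p = 0.0153) and 1.87 ± 0.38 in wild type (adjusted p = 0.00887). The knockout call ended without knockout library 1 (0.0551) and without knockout I/R library 1 (0.0648) or 2 (0.0972). Ppara itself did not pass in either genotype (0.29 ± 0.20 in knockout and -0.44 ± 0.20 in wild type).

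Cyp4a10 and Cyp4a31, neighbours of Cyp4a14 in the same cluster, did not rise by the test. Cyp4a10 had 125 and 142 FPKM in knockout I/R libraries, 140.1 and 87.3 in wild-type I/R libraries, 148 and 117 in knockout libraries and 105 and 111 in wild-type libraries. Its differences were 0.02 ± 0.22 in knockout and 0.04 ± 0.22 in wild type. Cyp4a31 lay between 84.1 and 127 FPKM in all 8 libraries, with a difference of 0.01 ± 0.10 in knockout and a fall of 0.36 ± 0.10 in wild type (adjusted p = 0.024). Cyp4a10, Cyp4a31 and Cyp4a32 are near-identical copies, and their sum did not pass (0.007 ± 0.155 in knockout and -0.165 ± 0.155 in wild type). The wild-type call of Cyp4a31 also ended at equal FPKM sums (-0.07, adjusted p = 0.627), and without wild-type library 1 (0.0881), wild-type library 2 (0.103) or wild-type I/R library 2 (0.119).

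Cyp4a12a and Cyp4a12b, the arachidonate omega-hydroxylase pair whose first member is known as androgen-dependent in male kidney, moved in opposite directions as listed. They lie on chromosome 4 (115299046 to 115332815 and 115411624 to 115439034, plus strand). Their proteins share 97.8% of residues and their coding sequences differ at 23 of 1524 bases, with a longest shared run of 342 bases. Coding bases 624 to 683 (GENCODE M21) hold 4 of the differences, in capitals, the most of any stretch of that length.
Cyp4a12a: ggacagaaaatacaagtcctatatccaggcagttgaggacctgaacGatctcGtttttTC
Cyp4a12b: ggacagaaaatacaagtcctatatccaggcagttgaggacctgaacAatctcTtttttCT

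Cyp4a12a had 8.58 and 8.53 FPKM in knockout I/R libraries, 17.4 and 23.3 in wild-type I/R libraries, 28.9 and 14.3 in knockout libraries and 34.7 and 75.8 in wild-type libraries. Cyp4a12b had 7.47 and 7.66 FPKM in knockout I/R libraries, 16.6 and 14.9 in wild-type I/R libraries, 3.73 and 2.73 in knockout libraries and 3.51 and 5.60 in wild-type libraries. As listed, Cyp4a12a fell by 1.31 ± 0.41 in wild type (adjusted p = 0.0443; -1.16 ± 0.41, adjusted p = 0.0923 in knockout), and Cyp4a12b rose by 1.03 ± 0.19 in knockout and by 1.62 ± 0.19 in wild type. The pair summed to 1 value did not pass and turned the direction of Cyp4a12b (-0.52 ± 0.38, adjusted p = 0.373 in knockout and -0.62 ± 0.38, adjusted p = 0.251 in wild type). That sum follows the more abundant Cyp4a12a, so its direction does not show whether reads were split correctly. The split is uncertain because of the shared sequence, where short reads may be assigned to either gene. The knockout call of Cyp4a12b also ended without knockout I/R library 1 (adjusted p = 0.0627) or 2 (0.0847).

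Cyp4f16, of a family known for hydroxylating leukotrienes and fatty acids, had 4.77 and 5.73 FPKM in knockout I/R libraries, 5.60 and 6.04 in wild-type I/R libraries, 3.46 and 3.70 in knockout libraries and 2.95 and 2.91 in wild-type libraries. It rose by 0.44 ± 0.10 in knockout and by 0.79 ± 0.10 in wild type. The knockout call ended without knockout library 1 (adjusted p = 0.0893) or knockout I/R library 2 (0.142). Cyp4f13 was lower in both genotypes (-0.33 ± 0.07 in knockout and -0.37 ± 0.07 in wild type), and both calls ended at equal FPKM sums, where its difference was -0.095 in knockout (adjusted p = 0.432) and -0.093 in wild type (adjusted p = 0.402). The other called CYP4 genes, in wild type, were Cyp4a32, which as listed fell by 0.88 ± 0.12, and Cyp4v3, the counterpart of the human retinal disease gene CYP4V2, which rose by 0.75 ± 0.16. Cyp4a32, at a mean of 3.59 FPKM, is a near-identical copy of the far more abundant Cyp4a10 and Cyp4a31, so its share of reads is uncertain. The 3 summed did not pass in wild type (-0.165 ± 0.155, limma adjusted p = 0.443). That sum follows the abundant copies and does not show whether reads were split correctly.

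The vitamin D genes split. Cyp24a1, the mitochondrial enzyme that inactivates vitamin D hormone (chromosome 2, 170482708 to 170497145, minus strand), had 40.1 and 33.7 FPKM in knockout I/R libraries, 43.2 and 55.7 in wild-type I/R libraries, 16.0 and 34.3 in knockout libraries and 15.6 and 18.1 in wild-type libraries. The knockout groups overlapped, since knockout library 2 lay above knockout I/R library 2. Cyp24a1 rose by 1.49 ± 0.32 in wild type (adjusted p = 0.0104) and did not pass in knockout (0.63 ± 0.32, adjusted p = 0.207). The wild-type call ended without wild-type library 1 (adjusted p = 0.0529) or wild-type I/R library 2 (0.0637), and the difference between genotypes in this change did not pass (-0.86 ± 0.45, adjusted p = 0.372). Reads of Cyp24a1 may include some of Pfdn4, which overlaps it on the opposite strand at a mean of 4.03 FPKM.

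Cyp27b1, the mitochondrial enzyme that makes vitamin D hormone, had 4.64 and 4.19 FPKM in knockout I/R libraries, 5.55 and 4.64 in wild-type I/R libraries, 9.46 and 13.3 in knockout libraries and 12.1 and 6.15 in wild-type libraries. Every I/R library lay under every library without I/R. Cyp27b1 fell by 1.18 ± 0.28 in knockout (adjusted p = 0.0291) and did not pass in wild type (-0.67 ± 0.28, adjusted p = 0.104). The knockout call ended without knockout library 1 or 2 (adjusted p 0.0555 and 0.0912), without knockout I/R library 1 or 2 (0.0973 and 0.146) and at equal FPKM sums (0.0617), and the genotypes' changes did not differ by the test (-0.50 ± 0.40, adjusted p = 0.559). Cyp2r1, which carries out the first vitamin D step in liver, was under the filter, with 18 and 26 reads in knockout I/R libraries, 27 and 32 in wild-type I/R libraries, 18 and 24 in knockout libraries and 22 and 9 in wild-type libraries. Vdr, the vitamin D receptor gene, fell in wild type (-0.63 ± 0.11) and did not pass in knockout (-0.11 ± 0.11).

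**Figure D4:**
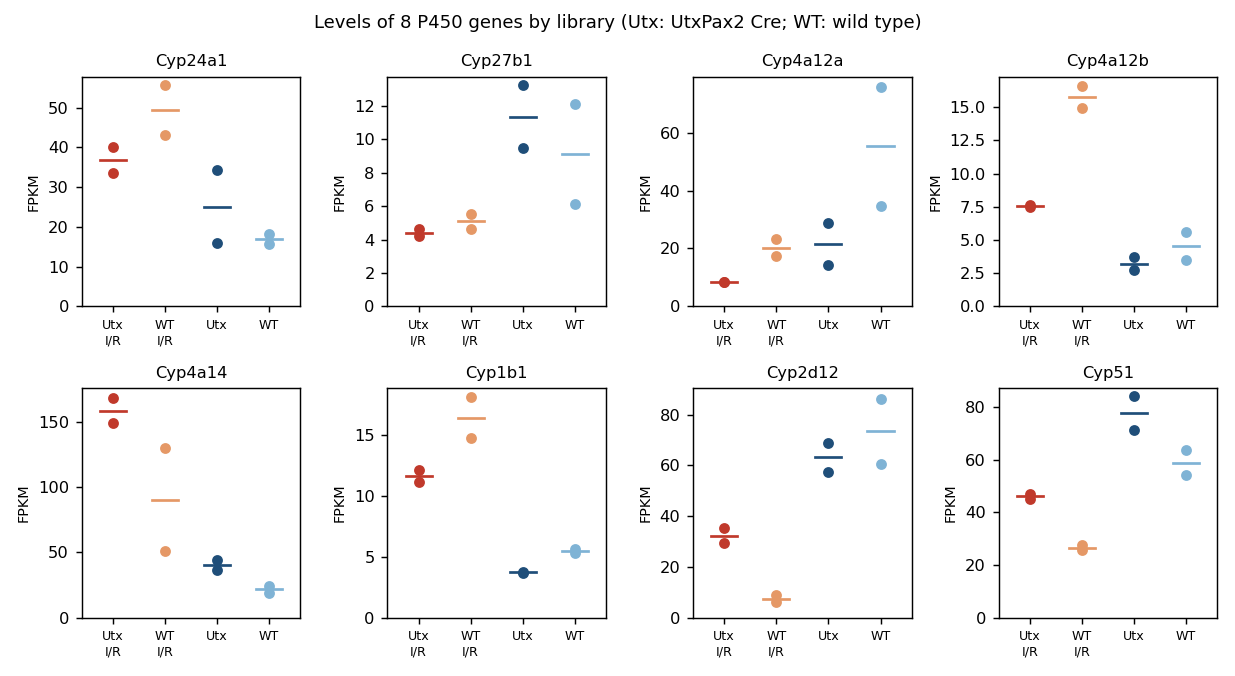
Levels in FPKM of 8 P450 genes in each library, with 1 point per library and a bar at the group mean; UtxPax2 Cre libraries stand left of wild-type ones within each treatment. Cyp4a14, Cyp1b1 and, as listed apart from its copy, Cyp4a12b lie higher in every I/R library than in every library without I/R, and Cyp2d12 is lowest in the wild-type I/R libraries.

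Of 4 tested sterol and steroid genes, Cyp7b1, Cyp51 and Cyp27a1 fell in both genotypes, as did 9.64% of all tested genes. Cyp51, the lanosterol demethylase of cholesterol synthesis, had 47.2 and 45.1 FPKM in knockout I/R libraries, 25.6 and 27.7 in wild-type I/R libraries, 84.2 and 71.4 in knockout libraries and 63.7 and 54.2 in wild-type libraries. It fell by 0.74 ± 0.11 in knockout (adjusted p = 0.00724) and by 1.11 ± 0.11 in wild type, and the knockout call ended without knockout I/R library 2 (adjusted p = 0.0623). Cyp27a1, the mitochondrial sterol hydroxylase of bile acid synthesis, had 25.2 and 25.5 FPKM in knockout I/R libraries, 20.2 and 20.9 in wild-type I/R libraries, 37.6 and 38.3 in knockout libraries and 36.0 and 34.6 in wild-type libraries. It fell by 0.57 ± 0.06 in knockout and by 0.75 ± 0.06 in wild type. Cyp39a1, an oxysterol hydroxylase gene, did not pass in either genotype. Cyp11a1, which starts steroid hormone synthesis, had 0 or 1 read in every library, under the floor of 3 reads, and the adrenal regulator Nr5a1 was at 0 in all 8.

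Cyp1b1, an estrogen and xenobiotic hydroxylase gene and a target of the aryl hydrocarbon receptor, had 12.1 and 11.2 FPKM in knockout I/R libraries, 14.7 and 18.1 in wild-type I/R libraries, 3.78 and 3.66 in knockout libraries and 5.61 and 5.32 in wild-type libraries. All I/R libraries lay above all others. It rose by 1.42 ± 0.10 in knockout (adjusted p = 0.000827) and by 1.42 ± 0.10 in wild type (adjusted p = 0.000173), and no alternative tried ended either call. Fibroblast markers, all 4 of which rose in both genotypes, moved with it, summing to 64.9 and 76.7 FPKM in knockout I/R libraries, 91.2 and 113 in wild-type I/R libraries, and 11.1 to 14.7 FPKM without I/R; their part in the rise was not tested. Cyp1a1, another target of that receptor, was under the filter, with 7 and 10 reads in knockout I/R libraries, 3 and 6 in wild-type I/R libraries, 25 and 17 in knockout libraries and 28 and 33 in wild-type libraries. Ahr, the receptor's own gene, rose in wild type (0.41 ± 0.13), at 1.53 and 1.98 FPKM with I/R and 1.08 and 1.06 FPKM without, and did not pass in knockout.

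Cyp26b1, which breaks down retinoic acid, had 1.84 and 1.92 FPKM in knockout I/R libraries, 1.02 and 0.760 in wild-type I/R libraries, 1.09 and 1.77 in knockout libraries and 0.678 and 0.728 in wild-type libraries. Its I/R differences did not pass (0.26 ± 0.16 in knockout and 0.15 ± 0.16 in wild type). After I/R the knockout minus wild-type difference of Cyp26b1 was 0.61 and did not pass with limma. Limma-voom on recovered reads called it (1.099, adjusted p = 0.0194). The remaining I/R calls were in wild type, a rise of the orphan enzyme gene Cyp20a1 (0.34 ± 0.09) and a fall of Cyp2f2 (-0.84 ± 0.17), which is known for naphthalene oxidation in lung. Cyp2f2, at a mean of 1.88 FPKM, overlaps the antisense gene Gm15883 at 5.25 FPKM. The strand setting is not given, so reads of Cyp2f2 may include some of that gene's. With no filter on low values, 4 untested members also passed in wild type, Cyp1a1, Cyp2b10 and Cyp2j8 lower and Cyp3a13 higher, and none passed in knockout. That fit held 30208 genes, and its share called over all genes was not recorded.

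Start regions are shown for Cyp2a4, Cyp2a5 and Cyp4b1, which fell in both genotypes, and for Cyp1b1, which rose in both. Those of the CYP2A pair are nearly the same. The 250 bases before the start are from RefSeq (GRCm38.p6), given 5′ to 3′ on the gene's strand. Capitals mark the motifs searched: GTTAAT (part of an HNF1 site), AGGTCA (a nuclear receptor site), TGACTCA (AP-1 site), GCGTG (xenobiotic response core) and TATAAA (the core promoter box), each searched on both strands, so that a match on the other strand shows as its reverse complement. Cyp2a4 lies at chr7:26306942-26307191 (plus strand), Cyp2a5 at chr7:26835089-26835338 (plus strand), Cyp4b1 at chr4:115647722-115647971 (minus strand) and Cyp1b1 at chr17:79715062-79715311 (minus strand).
Cyp2a4: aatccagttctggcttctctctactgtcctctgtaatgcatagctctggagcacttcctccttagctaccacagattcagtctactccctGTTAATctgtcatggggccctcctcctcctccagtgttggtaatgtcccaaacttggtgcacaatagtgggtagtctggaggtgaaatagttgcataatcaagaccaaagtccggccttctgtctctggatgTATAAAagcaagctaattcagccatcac
Cyp2a5: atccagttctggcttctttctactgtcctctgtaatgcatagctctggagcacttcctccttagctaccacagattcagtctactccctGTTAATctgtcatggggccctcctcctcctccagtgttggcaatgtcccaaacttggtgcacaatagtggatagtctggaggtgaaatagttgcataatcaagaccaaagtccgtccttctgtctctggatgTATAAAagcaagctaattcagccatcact
Cyp4b1: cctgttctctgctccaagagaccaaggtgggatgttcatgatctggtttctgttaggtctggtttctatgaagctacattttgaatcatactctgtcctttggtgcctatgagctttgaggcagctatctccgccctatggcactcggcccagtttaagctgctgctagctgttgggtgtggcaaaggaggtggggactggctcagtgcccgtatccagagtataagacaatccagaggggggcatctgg
Cyp1b1: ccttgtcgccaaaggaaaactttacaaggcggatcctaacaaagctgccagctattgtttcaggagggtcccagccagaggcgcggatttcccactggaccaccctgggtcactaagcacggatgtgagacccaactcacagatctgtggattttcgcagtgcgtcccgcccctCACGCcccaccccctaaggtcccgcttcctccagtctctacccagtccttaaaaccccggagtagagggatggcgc

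The CYP2A pair matched at 245 of 250 aligned bases (98.0%), and both hold GTTAAT, 160 and 161 bases before the start, and TATAAA, 28 and 29 bases before it. Cyp4b1 holds none of the 5 motifs in this window, and Cyp1b1 holds GCGTG once, 76 bases before the start. A RefSeq start within 1000 bases of the deposited gene start was found for 72 members, among them 10 of the 13 that fell in both genotypes and 3 of the 5 that rose in both. Of those 10, 2 hold GTTAAT, 1 AGGTCA, 0 TGACTCA, 2 GCGTG and 4 TATAAA, where 6.52%, 13.8%, 4.43%, 28.2% and 13.0% of all 27025 promoters do. Of the 3 that rose, 2 hold GCGTG and 1 holds TGACTCA. Among the 10 that fell, the 2 with the HNF1 motif are the CYP2A pair, whose start regions are nearly the same. That pair also gives 2 of the 4 with the core promoter box. Of the 23 tested members with such a start, 4 hold the HNF1 motif and 7 the core promoter box. Of all 72, 8 and 25 do. Whether genes that fell differ from other members in these motifs was not tested. These matches are letters in a window and were not tested as binding sites.

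After I/R, 6 P450 genes differed between knockout and wild type, 5 higher and 1 lower, where 6.01% of all tested genes were called (2.79% higher and 3.22% lower). The median difference was 0.23 for P450 genes and 0.01 for all genes. Cyp2d12 showed the largest difference, 35.3 and 29.3 FPKM in knockout I/R libraries against 8.77 and 6.12 FPKM in wild-type I/R libraries (1.99 ± 0.22, adjusted p = 0.0119). Cyp51 was higher by 0.77 ± 0.11 (adjusted p = 0.0191), with no overlap between genotypes; its opposite-strand neighbour Akap9 overlaps it at a mean of 3.48 FPKM, against 52.4 FPKM for Cyp51. The epoxygenase genes Cyp2j11 (0.60 ± 0.07, adjusted p = 0.0125) and Cyp2j5 (0.48 ± 0.09, adjusted p = 0.0315) and the sterol gene Cyp27a1 (0.29 ± 0.06, adjusted p = 0.0483) were higher too. Cyp4a12b was lower, at 7.47 and 7.66 FPKM in knockout I/R libraries against 16.6 and 14.9 FPKM in wild-type I/R libraries (-0.97 ± 0.19, adjusted p = 0.0379); summed with its copy Cyp4a12a the difference was -1.11 ± 0.38 and did not pass (adjusted p = 0.136).

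Proximal tubule markers moved the same way, with 4 of 12 (Fbp1, Slc22a8, Slc34a1 and Slc5a2) higher in knockout after I/R and none lower (median difference 0.45). Distal convoluted tubule markers (3 of 3 higher, median 1.37) and intercalated cell markers (2 of 3 higher, median 0.85) did too, and 3 of 4 tubular injury genes were lower (median -1.48). The part of these markers in the P450 differences was not tested. The P450 sum per marker sum was 0.727 and 0.734 in knockout I/R libraries and 0.829 and 0.871 in wild-type I/R libraries. At equal FPKM sums the split was 4 higher and 2 lower, while 20.1% of the 1126 genes called among all genes were higher (46.4% before that scaling). No P450 gene passed without wild-type I/R library 2 or without either knockout I/R library, and 2 did without wild-type I/R library 1. Leaving out either library of knockout without I/R, which does not enter the comparison but adds to the shared spread, gave 9. Without any one of the wild-type, wild-type I/R or knockout I/R libraries, neither Cyp2j5 (adjusted p 0.0605 to 0.224) nor Cyp27a1 (0.087 to 0.254) passed. Cyp2j5 also did not pass with no filter on low values (0.105) or with the replicate block (0.055), and Cyp27a1 did not pass under 6 of the 8 other settings. Cyp1b1 just missed (-0.46 ± 0.10, adjusted p = 0.0521), as did Cyp4a31 (0.40 ± 0.10, adjusted p = 0.0586).

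**Figure D5:**
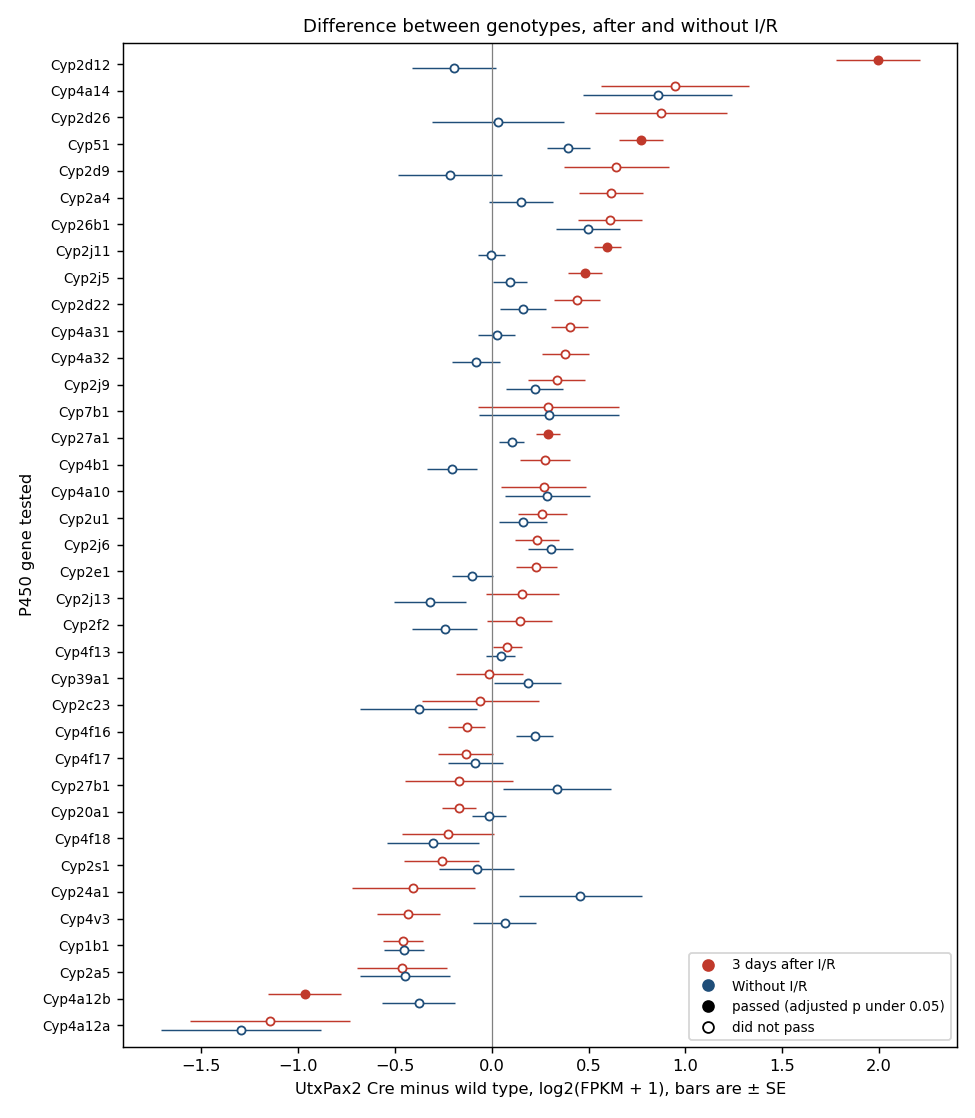
Log2 difference, UtxPax2 Cre minus wild type, of the 37 tested P450 genes after I/R (upper mark, red) and without I/R (lower mark, blue), with SE bars; filled marks passed the test. The 6 filled marks are Cyp2d12, Cyp51, Cyp2j11, Cyp2j5, Cyp27a1 and Cyp4a12b after I/R, and no mark without I/R is filled.

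Without I/R no P450 gene passed between knockout and wild type with limma, where 0.00752% of all tested genes (1 gene) did. At an unadjusted p under 0.05 there were 5 P450 genes and 1233 genes in all, and limma-voom on recovered reads called 0 P450 genes. The widest gap was in Cyp4a12a, 28.9 and 14.3 FPKM in knockout libraries against 34.7 and 75.8 FPKM in wild-type libraries (-1.29 ± 0.41, adjusted p = 0.462). Cyp4a14 had 43.9 and 36.2 FPKM in knockout libraries against 19.2 and 24.3 FPKM in wild-type libraries (0.86 ± 0.38, adjusted p = 0.555). Neither pair of groups overlapped, and neither difference passed. Cyp2j11 lay at 107 and 98.3 FPKM in knockout libraries against 103 and 103 FPKM in wild-type libraries. Cyp1b1 lay lower in knockout without I/R as well (log2 difference -0.45, against -0.46 after I/R). Cyp51 lay higher, at 84.2 and 71.4 FPKM in knockout libraries against 63.7 and 54.2 FPKM in wild-type libraries. The groups of Cyp1b1 and of Cyp51 did not overlap, and neither difference passed.

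Whether the I/R change itself differed between genotypes was tested as an interaction, and no P450 gene passed with limma, where 0.286% of all tested genes did (0.0752% higher and 0.21% lower). At an unadjusted p under 0.05 there were 7 P450 genes and 2308 genes in all. Cyp2d12 came closest, with a change 2.19 ± 0.31 less negative in knockout (adjusted p = 0.0547), and Cyp2j11 followed (0.60 ± 0.10, adjusted p = 0.0748). Limma-voom on recovered reads called both (adjusted p = 0.00747 and 0.0416), and equal FPKM sums gave Cyp2d12 alone (0.032). The absolute I/R difference was smaller in knockout for 29 of the 37 P450 genes (78.4%) and for 64.5% of all tested genes.

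Some genes that serve P450 enzymes fell after I/R too. Of 8 tested redox partners, 3 fell in knockout and 5 in wild type, and none rose; over all genes 11.7% were lower in knockout and 20.1% in wild type. Por, the reductase that supplies electrons to P450s of the endoplasmic reticulum, had 85.7 and 83.9 FPKM in knockout I/R libraries, 75.2 and 70.8 in wild-type I/R libraries, 134 and 123 in knockout libraries and 119.6 and 116 in wild-type libraries (-0.59 ± 0.08 in knockout and -0.68 ± 0.08 in wild type). Fdx1, the ferredoxin that serves mitochondrial P450s, fell by 0.68 ± 0.12 in knockout and by 0.59 ± 0.12 in wild type. Of 8 heme synthesis genes, 4 fell in knockout and 6 in wild type, against the same shares over all genes. Alas1, the rate-limiting enzyme of heme synthesis, had 46.2 and 47.96 FPKM in knockout I/R libraries, 42.6 and 40.5 in wild-type I/R libraries, 70.0 and 63.9 in knockout libraries and 95.3 and 107 in wild-type libraries, a fall of 0.50 ± 0.09 in knockout and of 1.26 ± 0.09 in wild type.

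Hmox1, which degrades heme, was the called member of 4 heme breakdown genes. It had 36.2 and 41.4 FPKM in knockout I/R libraries, 59.6 and 66.5 in wild-type I/R libraries, 25.8 and 24.5 in knockout libraries and 29.5 and 35.2 in wild-type libraries. It rose by 0.60 ± 0.11 in knockout and by 0.94 ± 0.11 in wild type, and after I/R it was lower in knockout than in wild type (-0.69 ± 0.11, adjusted p = 0.0243). Ephx2, the soluble hydrolase that removes P450-made epoxides, fell in both genotypes (-0.79 ± 0.12 in knockout and -1.08 ± 0.12 in wild type), and Ephx1 rose in wild type (0.48 ± 0.09). Of 22 tested regulators of P450 genes, 3 fell and 1 rose in knockout, a share near that of all genes (11.7% lower and 8.95% higher). In wild type 10 of the 22 fell and 2 rose, against 20.1% lower and 17.4% higher over all genes. The hepatocyte and proximal tubule factor gene Hnf4a fell in wild type (-0.61 ± 0.11) and did not pass in knockout (-0.12 ± 0.11), and the growth hormone receptor gene Ghr fell in both (-0.60 ± 0.09 in knockout and -0.94 ± 0.09 in wild type). Without I/R none of these genes passed between genotypes.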

How the data were processed

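RNA of 8 mouse kidney samples was measured by sequencing, with 2 libraries in each of 4 groups. The authors deposited FPKM per gene in 1 table, with gene coordinates and lengths. The submitters' processing notes name GRCm39, DESeq2 1.20.0 and featureCounts 1.5.0-p3. The aligner, strand setting and FPKM formula are not given in these sources. The library size behind the FPKM was 0.857 to 0.905 times the assigned reads without I/R and 0.990 to 1.07 times after I/R. Relative to assigned reads, this scale widens falls and narrows rises after I/R. Its effect on single calls was not tested beyond equal FPKM sums. Of the 54965 gene identifiers 54409 matched GENCODE M21 (GRCm38) and 53499 had the same coordinates there (90 of the 100 P450 genes), so positions are those of GRCm38. FPKM times gene length gave whole reads for 100% of values within 0.05 reads. No replicate pair was close enough to sampling noise to be merged.

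Genes averaging 1 FPKM or more were fitted with limma 3.58.1 in R 4.3.3 on log2(FPKM + 1), 1 mean per group (4 residual and 2.90 prior degrees of freedom), two-sided, with Benjamini-Hochberg adjustment over 13304 genes at 0.05. The procedure was run on simulated data with few changed genes and the same spread in every group. That setting differs from these data, so the run does not give their error rates. Alternatives were another pseudocount, no filter, the 2 groups alone, equal FPKM sums, limma-voom on recovered reads, no variance trend, a replicate block, merged copies (proteins at least 90% identical, by Biopython 1.88) and each library left out. By rule, genes described singly are the 12 highest members, up to 6 calls per direction and comparison, and 14 members of known renal, vitamin D, sterol, steroid or xenobiotic roles. Cyp4a12a, Cyp4a32, Cyp4f13, Cyp4f17, Cyp4v3, Cyp2c23, Cyp2d22, Cyp2f2, Cyp20a1 and other members named outside that rule were chosen after their values were seen. The members and all lists were chosen with earlier results of these data known.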

Additional observations from a re-analysis of the deposited data

How the results depend on the processing

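The count of P450 genes changed by I/R in knockout moved to 12 with no filter on low values (19 as reported), and to between 9 and 19 when 1 library was left out. In wild type leaving out 1 library gave 19 to 25. The count of P450 genes that differed between genotypes after I/R moved to 3 with no filter and to 11 with limma-voom on recovered reads (6 as reported), and to between 0 and 9 when 1 library was left out. Leaving out a library of a compared group leaves 1 sample, which is then assumed to vary like the other groups. The interaction count was 0 as reported, 1 at equal FPKM sums and 2 with limma-voom, and 0 without any 1 library. Without I/R the genotypes gave 0 under every alternative tried. Merging near-identical copies reversed Cyp4a12b after I/R, to -0.523 in knockout and -0.619 in wild type; its reads are summed there with those of the more abundant Cyp4a12a. The cause of the other moves was not tested. Shares called over all genes are given only at equal FPKM sums. The other counts therefore do not show whether genes outside the P450 family moved likewise.

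Same-numbered libraries deviated together with correlations of -0.083 to 0.046, and 0.161 for knockout and wild type without I/R. With 2 libraries per group, these values cannot show whether the replicate numbers pair the samples. With the replicate number as a block, the count between genotypes after I/R was 3, and the I/R counts were 18 in knockout and 24 in wild type. Between genotypes after I/R, Cyp27a1 did not pass under 6 of 8 settings other than leaving out a library (adjusted p 0.0517 to 0.213), and passed with limma-voom (0.0402) and with copies merged. Depth limits the 63 untested members, of which 22 had no read.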
